A study of Macaca fascicularis with 2 samples.

Results

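BMP signaling and the ID genes were followed in single cells of the fetal ovary of Macaca fascicularis through 10 genes of 18446 in the count table: the ligands BMP2 and BMP4, the receptors BMPR1A, BMPR1B and BMPR2, the intracellular inhibitor SMAD6, and the targets ID1, ID2, ID3 and ID4. The genes were taken by name as a ligand, receptor and target set, and all 10 were present. The cells came from untreated female fetuses, 1 at embryonic day 84 (E84) and 1 at E116. Both ovaries of a fetus were cut up and digested whole with enzymes into 1 library per stage, so no cell type was sorted out, and the cells of a stage are those of 1 animal. The table's cell barcodes carry the ending 1 or 2 with no statement of which ending is which stage. The cells were therefore pooled into 1 sample, and values by ending are given without a stage name. If each ending is 1 library, a difference between endings carries stage, animal and library together, and these cannot be told apart. Cells are not replicates, so no test was made between groups, and every interval below covers counting error only.

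BMP ligands are secreted dimers that bind a pair of receptor types at the cell surface: type I receptors, among them BMPR1A and BMPR1B, and type II receptors, among them BMPR2. The activated type I receptor phosphorylates SMAD1, SMAD5 and SMAD9, which enter the nucleus with SMAD4 and raise transcription of the ID genes and of SMAD6, an inhibitor that feeds back on the receptor. ID proteins lack a DNA-binding region and hold E proteins away from DNA, and BMP signaling is known in the mouse ovary for its part in the entry of female germ cells into oogenesis and meiosis.

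Of 20967 cells, 16292 had 200 to 3000 detected genes and were retained, 8716 with ending 1 and 7576 with ending 2, at medians of 2470 and 2964 UMIs (unique molecules counted). Only 27 barcodes, 0.258%, were shared by the endings. Clusters were named from marker lists, without use of the 10 genes: 5333 granulosa-like, 4357 germ cell-like, 3999 stroma-like, 755 ovarian surface epithelium-like, 734 erythroid-like, 344 endothelial-like, 229 macrophage-like and 121 pericyte-like cells. Another 420 cells stayed unnamed. The macrophage-like class was mixed: 10 lymphocyte markers, none at 0, summed to 2272 CPM in it and to at most 4.69 in every other class, and their part in its levels was not tested. Among germ cell-like cells, 81 were named as mitotic-like and 1580 as retinoic acid (RA)-responsive-like, while 896 were meiotic-like, 574 oogenesis-like and 1226 without a named step. All 81 mitotic-like cells had ending 1, so that step has no value for ending 2. The 7 RA-responsive markers summed to 738.1 CPM in RA-responsive-like cells and to 991.6 in meiotic-like cells. That name thus rests on how many of its markers were higher than elsewhere, and not on their sum. Levels are CPM, a gene's summed UMIs in a group scaled to an equal total for every group, and they compare groups for 1 gene, since levels of different genes are not on a common scale. A sum over cells does not separate fewer expressing cells from less RNA per cell.

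BMP2 was highest in granulosa-like and surface epithelium-like cells. Its level was 70.1 CPM (95% interval 66.3 to 74.0, 1297 UMIs) in granulosa-like cells and 67.5 (58.6 to 77.4) in surface epithelium-like cells, and these intervals overlapped. The pooled values hide opposite orders in the endings, since surface epithelium-like cells had 59.1 CPM for ending 1 and 78.4 for ending 2, and surface epithelium minus granulosa was -0.70 (-1.01 to -0.40) and 0.84 (0.51 to 1.15). Macrophage-like (35.5), endothelial-like (32.0) and pericyte-like (25.7) cells followed with overlapping intervals. Stroma-like cells had 15.2 CPM (13.2 to 17.3), which overlapped the pericyte-like interval. The granulosa-like level was 4.63-fold the stroma-like level, a log2 difference of 2.21 (2.01 to 2.42). It held within both endings, at 2.75 (2.42 to 3.09) for ending 1, with 96.0 against 14.3 CPM, and 1.48 (1.21 to 1.77) for ending 2, with 43.9 against 15.7 CPM. In germ cell-like cells BMP2 was 25.6 CPM (20.7 to 31.2) in the RA-responsive-like step, above the stroma-like level, and 9.08 to 10.6 CPM in the other steps, whose intervals overlapped.

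BMP4 had another order. By the pooled value it was highest in surface epithelium-like cells at 52.1 CPM (44.3 to 60.9), with 51.6 for ending 1 and 52.8 for ending 2. The pericyte-like interval (14.5 to 48.9) overlapped it. For ending 1 endothelial-like cells had the higher value, 66.5 CPM (43.4 to 97.4), with overlapping intervals. The intervals then overlapped step by step through pericyte-like (28.0), endothelial-like (24.2), stroma-like (16.5) and granulosa-like (14.2) cells. Surface epithelium-like cells exceeded granulosa-like cells by 1.87 (1.58 to 2.16) on the log2 scale and stroma-like cells by 1.66 (1.36 to 1.95). Between granulosa-like and stroma-like cells no difference was resolved, with granulosa minus stroma at -0.21 (-0.47 to 0.04), and the direction turned with the barcode ending, from -1.34 (-1.74 to -0.95) for ending 1 to 0.73 (0.37 to 1.09) for ending 2. In cells over 3000 detected genes, which the gene limit leaves out, granulosa-like cells had 21.8 CPM of BMP4 and stroma-like cells 10.9, and the direction turned with the ending there too, with 10.0 against 21.6 for ending 1 and 25.3 against 7.59 for ending 2. Endothelial-like cells were as uneven, at 66.5 CPM for ending 1 and 5.62 for ending 2. Germ cell steps had 3.81 to 12.9 CPM of BMP4, from 3 to 32 UMIs a step, and neighbours in that order had overlapping intervals.

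The germ cell levels of both ligands were low enough for RNA from other cells to matter. The 14 granulosa markers in the table summed to 97.7 to 220.0 CPM over the 4 germ cell steps against 1337 CPM in granulosa-like cells, and the 12 stroma markers to 390.4 to 900.5 CPM against 26039 CPM in stroma-like cells. Of these 14 markers, only FOXL2 was at 0 in the oogenesis-like step, and only FOXL2 and CBLN2 in the meiotic-like step. FOXL2, a defining transcription factor of granulosa cells, was also at 0 in surface epithelium-like, endothelial-like, macrophage-like and erythroid-like cells. The part of such RNA in the germ cell values was not tested. Erythroid-like cells, which should lack both ligands, had a UMI of BMP2 in 0.954% and of BMP4 in 0.272% of cells at a median of 4053 UMIs, with 475007 CPM from 8 erythroid markers. After every cell was thinned to 1000 UMIs, BMP2 was found in 5.87% of granulosa-like, 5.35% of surface epithelium-like, 1.28% of stroma-like and 0.156% of erythroid-like cells.

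**Figure D1:**
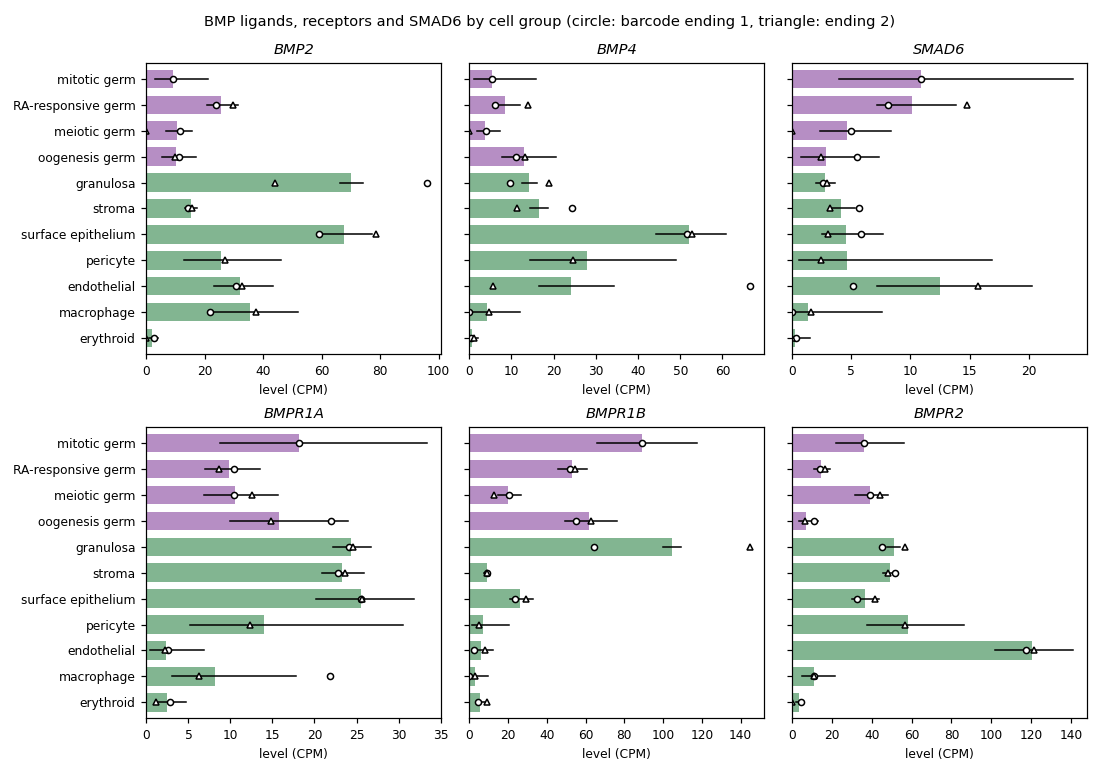
Levels of BMP2, BMP4, SMAD6, BMPR1A, BMPR1B and BMPR2 (horizontal axis, CPM of summed UMIs) in 4 germ cell steps (purple bars) and 7 somatic and blood classes (green bars). Lines are exact 95% Poisson intervals of the pooled value, and a missing symbol is an ending with fewer than 20 cells. BMP2 peaks in granulosa-like and surface epithelium-like cells at 70.1 and 67.5 CPM, BMPR1B in granulosa-like cells at 104.5 and BMPR2 in endothelial-like cells at 120.3.

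BMPR1B, a type I receptor, separated granulosa-like cells from the other somatic classes. It reached 104.5 CPM (99.9 to 109) in granulosa-like cells, where 25.8% of cells had a UMI, against 26.2 CPM (20.8 to 32.6) in surface epithelium-like and 9.21 CPM (7.74 to 10.9) in stroma-like cells. The granulosa-like level was 11.3-fold the stroma-like level, a log2 difference of 3.50 (3.25 to 3.76). Both endings showed it, at 2.81 (2.41 to 3.24) and 3.97 (3.65 to 4.31), with 64.5 and 144.8 CPM in granulosa-like cells and 9.19 and 9.22 CPM in stroma-like cells. After thinning, a BMPR1B UMI was found in 9.62% of granulosa-like cells and 0.558% of stroma-like cells, beside 0.935% of erythroid-like cells, which should lack it. The stroma-like level overlapped the erythroid-like level of 5.72 CPM (3.54 to 8.74), and the part of free RNA in it was not tested.

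Germ cell-like cells carried BMPR1B too. Its level was 89.0 CPM (65.8 to 118) in the mitotic-like, 61.8 (49.4 to 76.3) in the oogenesis-like and 53.0 (45.9 to 60.9) in the RA-responsive-like step, each overlapping its neighbour. The meiotic-like step stood below them at 19.9 CPM (14.6 to 26.4). The share of thinned cells with a UMI kept the meiotic-like step lowest, at 2.32% against 13.6% of mitotic-like, 5.14% of oogenesis-like and 4.76% of RA-responsive-like cells. The mitotic-like level rested on 49 UMIs, and its place as highest did not hold in cells above the upper gene limit. There BMPR1B was 103.7 CPM in oogenesis, 78.9 (74.9 to 83.1) in RA-responsive and 62.9 (56.6 to 69.8) in mitotic cells. RA-responsive minus mitotic was 0.33 (0.16 to 0.50) on the log2 scale. The meiotic level was again lowest there, at 49.3 CPM (43.7 to 55.3). BMPR1B RNA was thus counted in both germ cell-like and granulosa-like cells. The granulosa markers in the germ cell steps, as given above, were highest in the oogenesis-like step, and their part in the BMPR1B values was not tested.

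BMPR1A, the other type I receptor, varied little among the main somatic classes. Surface epithelium-like (25.6 CPM), granulosa-like (24.4) and stroma-like (23.3) cells had overlapping intervals, and the granulosa-like minus stroma-like difference was 0.07 (-0.14 to 0.27) on the log2 scale, 0.08 and 0.06 within the endings. Endothelial-like cells were the exception, with 3 UMIs and 2.34 CPM (0.483 to 6.85), a log2 difference from stroma-like cells of -3.31 (-5.60 to -1.75). In cells over 3000 detected genes, with 32 endothelial-like UMIs, it was -1.65 (-2.23 to -1.12). The germ cell steps lay between 9.85 and 18.2 CPM with overlapping intervals throughout.

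BMPR2, the type II receptor, was highest in endothelial-like cells at 120.3 CPM (102 to 141), with 117.6 for ending 1 and 121.5 for ending 2, and 35.2% of these cells had a UMI. Pericyte-like (58.3), granulosa-like (51.0) and stroma-like (49.3) cells came next with overlapping intervals. Endothelial-like exceeded stroma-like cells 2.44-fold, a log2 difference of 1.29 (1.03 to 1.54). In the germ cell steps BMPR2 took an order unlike that of BMPR1B: 39.3 CPM (31.7 to 48.2) in the meiotic-like and 36.3 (22.2 to 56.1) in the mitotic-like step, which overlapped, against 14.6 (11 to 19.1) in the RA-responsive-like and 7.19 (3.45 to 13.2) in the oogenesis-like step. The meiotic-like step, lowest for BMPR1B, had the highest value for BMPR2. The RA-responsive level was nearer to the others in cells over 3000 detected genes, where it was 33.2 CPM (30.6 to 35.9) beside 38.7 for mitotic and 44.1 for meiotic cells, and meiotic minus RA-responsive was 0.41 in place of 1.43 on the log2 scale.

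UMIs of BMPR1A or BMPR1B were seldom found in the same cell as those of BMPR2 at equal depth. Among cells thinned to 1000 UMIs, 11.6% of 4291 granulosa-like cells had a UMI of BMPR1A or BMPR1B, 4.89% one of BMPR2, and 25 cells, 0.583%, both. In 2873 germ cell-like cells 7 had both, and in 290 endothelial-like cells 0, which allows a share of up to 1.03%. At this depth a gene of 100 CPM leaves most cells without a UMI, so these shares limit what was counted together and not which cells hold both receptors. Whether the shares together differ from those of unrelated genes was not tested. The receptors ACVR1, ACVRL1, ACVR2A and ACVR2B were left out of this count. In germ cell-like cells ACVR2A had 24.0 CPM and ACVR2B 19.7, beside 23.5 of BMPR2, and in endothelial-like cells ACVRL1 had 113.3.

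SMAD6, the feedback inhibitor, was the sparsest of the 10 genes, with 214 UMIs in retained cells. Endothelial-like cells had the highest level, 12.5 CPM (7.14 to 20.3) from 16 UMIs, overlapping those of pericyte-like cells (4.67 from 2 UMIs), surface epithelium-like cells (4.59) and the mitotic-like and RA-responsive-like germ cells. The endothelial-like minus stroma-like log2 difference was 1.59 (0.70 to 2.41), and it rested on ending 2, with 2.31 (1.27 to 3.27) there against -0.13 (-3.24 to 1.83) for ending 1, where endothelial-like cells had 2 UMIs. In cells over 3000 detected genes it was 0.67, and there RA-responsive cells had the higher level, 12.5 CPM (10.9 to 14.2) against 7.02 (4.70 to 10.1) in endothelial-like cells. Mitotic-like and RA-responsive-like germ cells were at 10.9 and 10.1 CPM, and the meiotic-like and oogenesis-like steps at 4.65 and 2.88, with each neighbour overlapping.

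The ID genes divided the somatic classes in different ways. ID1 and ID3 were highest in vascular classes. ID1 reached 664.0 CPM (620 to 710) in endothelial-like cells, then 336.0 in pericyte-like, 240.4 in stroma-like, 138.9 in surface epithelium-like and 123.4 in granulosa-like cells. Among these only the last pair overlapped, and its order turned with the ending, surface epithelium minus granulosa being -0.46 (-0.74 to -0.20) for ending 1 and 0.62 (0.44 to 0.80) for ending 2. ID3 was at 786.4 CPM (705 to 875) in pericyte-like and 731.2 (685 to 780) in endothelial-like cells, which overlapped, and at 281.2 in stroma-like cells. Macrophage-like (199.5) and granulosa-like (187.5) cells overlapped below that, and surface epithelium-like cells had 101.6. Endothelial-like cells exceeded stroma-like cells by 1.47 (1.36 to 1.57) for ID1 and 1.38 (1.27 to 1.48) for ID3, and within the endings by 0.95 and 1.52 for ID1 and by 1.28 and 1.32 for ID3.

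ID2 and ID4 did not follow them. ID2 was highest in stroma-like cells at 1027 CPM, where 73.9% of cells had a UMI, then in pericyte-like (865.8) and granulosa-like (698.0) cells, and at 500.0 to 534.1 in macrophage-like, endothelial-like and surface epithelium-like cells, which overlapped. ID4 was highest in surface epithelium-like (57.7), stroma-like (52.1) and pericyte-like (51.3) cells with overlapping intervals, fell to 21.1 in granulosa-like cells, and was 7.03 CPM (3.21 to 13.3) in endothelial-like cells. The endothelial-like minus stroma-like log2 difference was -0.94 (-1.06 to -0.83) for ID2 and -2.89 (-4.02 to -1.96) for ID4. Thus the class with the highest ID1 had among the lowest ID4.

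**Figure D2:**
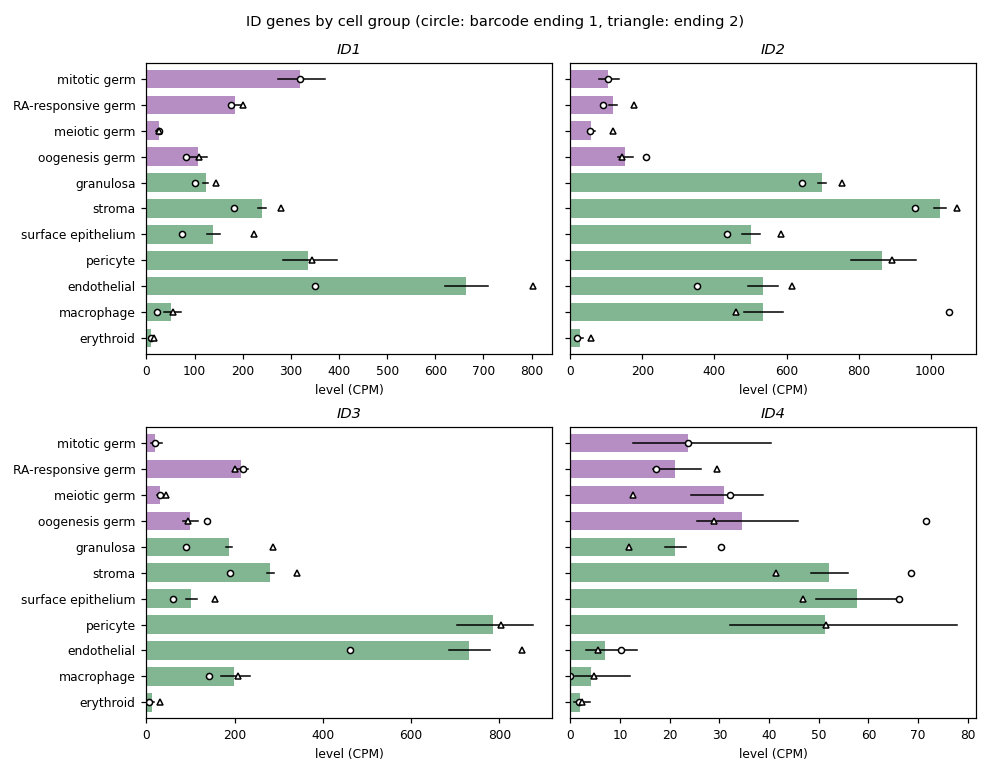
Levels of ID1, ID2, ID3 and ID4 (horizontal axis, CPM of summed UMIs) in 4 germ cell steps (purple) and 7 somatic and blood classes (green), with exact 95% Poisson intervals as lines. ID1 and ID3 rise in endothelial-like cells to 664.0 and 731.2 CPM, ID2 in stroma-like cells to 1027, and ID4 stays at or below 57.7 in every pooled group.

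Compared with stroma-like cells, granulosa-like cells had less of all ID genes in the retained cells. The log2 differences were -0.96 (-1.04 to -0.89) for ID1, -0.56 (-0.59 to -0.52) for ID2, -0.58 (-0.65 to -0.52) for ID3 and -1.30 (-1.48 to -1.12) for ID4, and all 4 were negative within both endings. Granulosa-like cells of ending 2 include cluster 7, with a median of 48.4% mitochondrial UMIs. Their cluster 6 had a higher ID3 value than stroma-like cluster 0, as given below. In the cells over 3000 detected genes the pooled values turned, with granulosa minus stroma at 0.12 for ID1, 0.21 for ID2 and 0.39 for ID3, and without any upper limit ID3 came to 0.09. The turn was that of ending 2, with 237.7 against 203.2 CPM for ID1, 1211 against 962.6 for ID2 and 423.6 against 302.6 for ID3. For ending 1 granulosa-like cells stayed below stroma-like cells, at 102.5 against 149.0, 789.9 against 970.2 and 86.7 against 134.4.

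Immediate early and heat shock genes, which respond to enzyme digestion, were set beside the ID genes. The 16 of 20 listed that were in the table summed to 17784 CPM in stroma-like, 14100 in pericyte-like, 9899 in endothelial-like, 9739 in granulosa-like, 8316 in macrophage-like and 6136 in surface epithelium-like cells, and to 1603 to 2310 in the germ cell steps. Over the 11 groups, on log2(CPM + 10), Pearson's r with this sum was 0.986 for ID2, 0.855 for ID3, 0.620 for ID1 and 0.375 for ID4. The 11 groups include the erythroid-like class, with 493.7 CPM of the sum, and r was not taken over the other somatic classes alone. Stroma-like cells had the highest sum, while ID1 was highest in endothelial-like and ID3 in pericyte-like cells. These points share 2 libraries and 1 digestion procedure, and the part of digestion in the ID levels was not tested.

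In the germ cell steps ID1 and ID3 ran differently before meiosis and alike after it. ID1 was 319.6 CPM (274 to 370) in the mitotic-like step, where 74.1% of cells had a UMI, 184.2 (171 to 198) in the RA-responsive-like, 25.4 (19.4 to 32.7) in the meiotic-like and 106.4 (89.9 to 125) in the oogenesis-like step, with no neighbours overlapping. ID3 was 20.0 CPM (9.97 to 35.7) in the mitotic-like step, 214.3 (200 to 230) in the RA-responsive-like, 30.9 (24.2 to 38.8) in the meiotic-like and 99.2 (83.3 to 117) in the oogenesis-like step, and only its mitotic-like and meiotic-like levels overlapped. From mitotic-like to RA-responsive-like cells ID3 was 10.7-fold higher, a log2 difference of 3.42 (2.58 to 4.43), while ID1 differed by -0.79 (-1.04 to -0.55). Taking the RA-responsive-like cells of ending 1 alone, these differences were 3.46 (2.61 to 4.47) and -0.86 (-1.11 to -0.60). The mitotic-like ID3 level rests on 11 UMIs and was not resolved from the 12.5 CPM of erythroid-like cells, so the size of this fold is uncertain.

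In the retained cells ID2 and ID4 varied less between steps. Their order of steps differed in cells over 3000 detected genes, as given below. ID2 was 151.7 CPM (132 to 174) in the oogenesis-like step, 117.9 (107 to 129) in the RA-responsive-like and 105.3 (80.0 to 136) in the mitotic-like step, the last pair overlapping, and 57.5 (48.2 to 68.0) in the meiotic-like step. The RA-responsive-like step itself was made of 3 sub-clusters, whose ID3 lay at 198.2 to 232.3 CPM and whose ID2 ranged from 93.0 and 94.9 to 226.4, the last in 453 cells nearly all of ending 2. RA-responsive minus mitotic was 0.16 (-0.23 to 0.58) for ID2 and -0.17 (-1.02 to 0.80) for ID4, neither resolved, and in cells over 3000 detected genes that of ID4 was 1.28. ID4 lay between 21.0 and 34.5 CPM in all 4 steps with overlapping neighbours. Its level in meiotic-like cells was uneven between 2 sub-clusters, at 72.9 CPM in 173 cells led by histone genes against 21.3 in the other 723.

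From the RA-responsive-like to the meiotic-like step 3 of the ID genes were lower. The log2 differences were -2.86 (-3.27 to -2.48) for ID1, -2.80 (-3.16 to -2.45) for ID3 and -1.04 (-1.32 to -0.76) for ID2, against 0.55 (0.07 to 1.03) for ID4. Within the endings ID1 differed by -2.80 and -3.00 and ID3 by -2.88 and -2.20, although only 38 meiotic-like cells had ending 2. With cells limited to at most 10% mitochondrial UMIs the differences of ID2 and ID4 turned, to 0.14 and -0.12. From the meiotic-like to the oogenesis-like step ID1, ID3 and ID2 were higher by 2.07 (1.63 to 2.53), 1.68 (1.26 to 2.11) and 1.40 (1.08 to 1.72). Oogenesis-like cells were mostly of ending 2 (476 of 574) and meiotic-like cells mostly of ending 1 (858 of 896). Within ending 1 these differences were 1.70, 2.20 and 1.98, and within ending 2 they were 2.13, 1.09 and 0.26. Under the mitochondrial limit that of ID2 was -0.10. The 12 endothelial markers were also higher in the oogenesis-like step, at 567.1 CPM against 179.7 in the meiotic-like step and 5201 in endothelial-like cells. The 11 macrophage markers summed to 267.4 against 30.9 CPM, while the stroma markers were lower, at 496.0 against 868.1. The part of RNA from such cells in the ID levels of the oogenesis-like step was not tested.

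Cells over 3000 detected genes, 4675 in number with 64.2% of all UMIs, gave clusters of comparable steps at greater depth, led by NANOG (282 cells), by REC8 and RFX6 (872), by SYCP1 (323) and by ASTL and ZAR1 (223). ID1 was there 265.8, 226.6, 116.5 and 116.0 CPM in that order, and ID3 was 49.6, 261.4, 117.1 and 73.4 CPM. ID2 was 303.0, 286.3, 124.0 and 177.1 CPM, highest in the NANOG-led cells. ID4 was 9.64, 23.5, 37.2 and 25.1 CPM, a wider range than in the retained steps. ID3 was again higher in the second cluster than in the first, by 2.40 on the log2 scale, and ID1 lower by 0.23. The higher levels of ID1 and ID3 in oogenesis-like than in meiotic-like cells were not seen, with differences of -0.0070 and -0.67. In the SYCP1-led cells the endings differed, at 25.2 and 160.2 CPM for ID1 and 34.8 and 156.3 for ID3, and their oogenesis markers summed to 520.3 CPM against 143.3 in the retained meiotic-like cells. BMP2 was 46.6 CPM in the NANOG-led cells, where the retained mitotic-like cells had 9.08. The granulosa markers summed to 373.3 CPM in the first and 147.1 in the second, and their part in this difference was not tested.

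**Figure D3:**
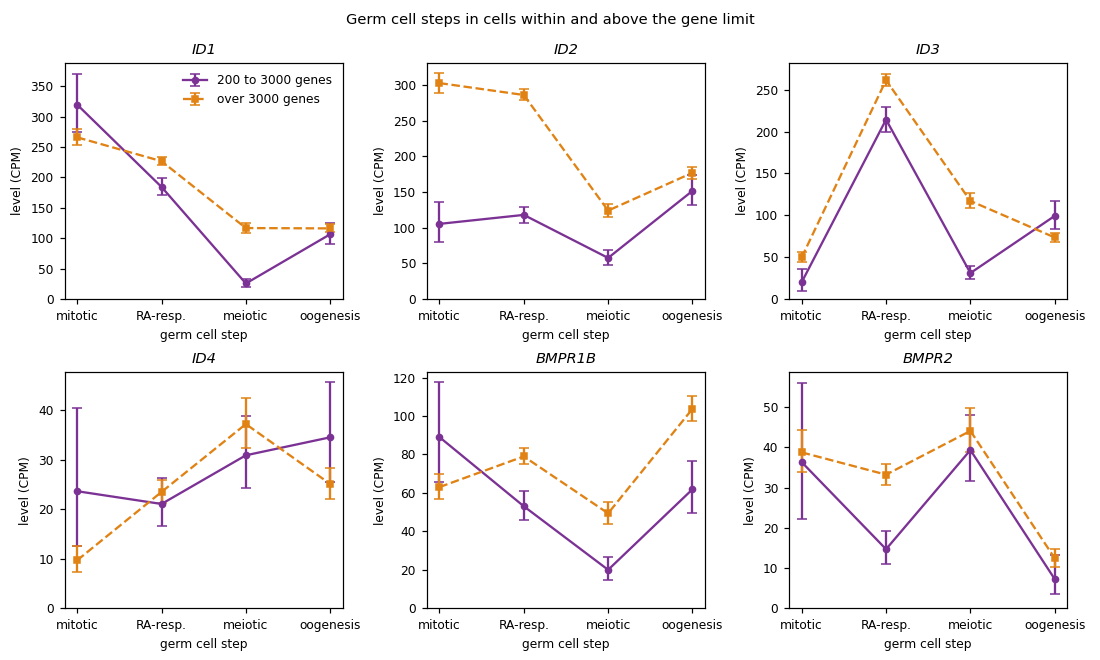
Levels of ID1, ID2, ID3, ID4, BMPR1B and BMPR2 (vertical axis, CPM) over 4 germ cell steps (horizontal axis) in retained cells (purple circles, solid line) and in cells over 3000 detected genes (orange squares, dashed line, steps taken as the clusters led by NANOG, by REC8 and RFX6, by SYCP1 and by ASTL and ZAR1). Bars are exact 95% Poisson intervals. ID3 peaks in the RA-responsive step in both sets, at 214.3 and 261.4 CPM, and BMPR2 is lowest in the oogenesis step in both, at 7.19 and 12.4.

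The immediate early sum was 1636, 2310, 1603 and 2292 CPM from the mitotic-like to the oogenesis-like step, and the higher pair of steps was the same as for ID3. The heat shock gene HSPA8 made up 964.2, 1500.2, 765.4 and 1472 CPM of it, and so most of the difference between steps. FOS made up 181.6, 238.8, 227.5 and 256.6, with the same higher pair. The next largest, EGR1 with 74.4, 150.4, 180.1 and 125.8 CPM and DNAJB1 with 147.1, 119.8, 136.6 and 120.0, did not have that pair. The pair shared by the sum and ID3 thus rested mostly on HSPA8. The sum without HSPA8 was not set beside ID3. The erythroid-like class had 10.3 CPM of ID1, 27.8 of ID2 and 12.5 of ID3, below all germ cell steps for each. Its ID3 interval overlapped that of the mitotic-like step. With 475007 CPM from 8 erythroid markers, any RNA from other cells is diluted in this class. Stroma markers summed to 443.3 CPM in it and to 868.1 in meiotic-like cells. Its ID levels therefore set no background for the germ cell steps, and the part of free RNA in those steps was not tested. After thinning, an ID3 UMI was found in 17.3% of RA-responsive-like, 10.5% of oogenesis-like, 2.93% of meiotic-like, 1.23% of mitotic-like and 1.71% of erythroid-like cells, the mitotic-like share being that of 1 cell.

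The granulosa-like class was not uniform, and the barcode endings held different clusters of it. Cluster 2 (1793 cells, 1764 of ending 1, led by SOST, TOX3 and KITLG) had 105.8 CPM of BMP2 and 67.8 of BMPR1B. Cluster 6 (1087 cells, 1086 of ending 2, led by LYPD1 and CBLN2) had 57.4 and 145.1. Clusters 7 (led by PLXNC1 and INHBB) and 13 (led by PCP4, CYP19A1 and AMH) had 14.2 and 14.3 CPM of BMP2 with 138.0 and 147.2 of BMPR1B. High BMPR1B was thus found both with and without high BMP2. As CPM, the BMP2 of clusters 7 and 13 was no higher than the 14.2 to 15.8 of the stroma-like clusters, from 28 and 19 UMIs. Cluster 7 had a median of 48.4% mitochondrial UMIs, against 7.43% and 6.32% in stroma-like clusters 0 and 3. That share lowers the CPM of all its other genes.

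ID genes followed the clusters as well. Cluster 6 had 184.2 CPM of ID1, 956.8 of ID2 and 365.7 of ID3, and cluster 2 had 105.3, 704.5 and 90.9. Cluster 7, with a median of 48.4% mitochondrial UMIs, had 63.9, 243.6 and 135.0. Cluster 5 was shallow, with a median of 673 UMIs, and had 87.2, 226.1 and 77.9. Among stroma-like cells, cluster 0 (2119 of 2122 cells with ending 2, led by GBP1 and IFIT2) had 11.3 CPM of BMP4, 277.3 of ID1 and 341.6 of ID3, and cluster 3 (1740 of 1768 with ending 1, led by POSTN, RSPO3 and LUM) had 24.6, 180.6 and 183.0. Since each of these clusters is nearly all of 1 ending, cluster and ending cannot be told apart. The same holds for any stage, animal or library difference that the endings carry. Surface epithelium-like cluster 10 had 55.2 CPM of BMP4, and cluster 17, 88 cells led by mitosis genes, had 21.6.

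**Figure D4:**
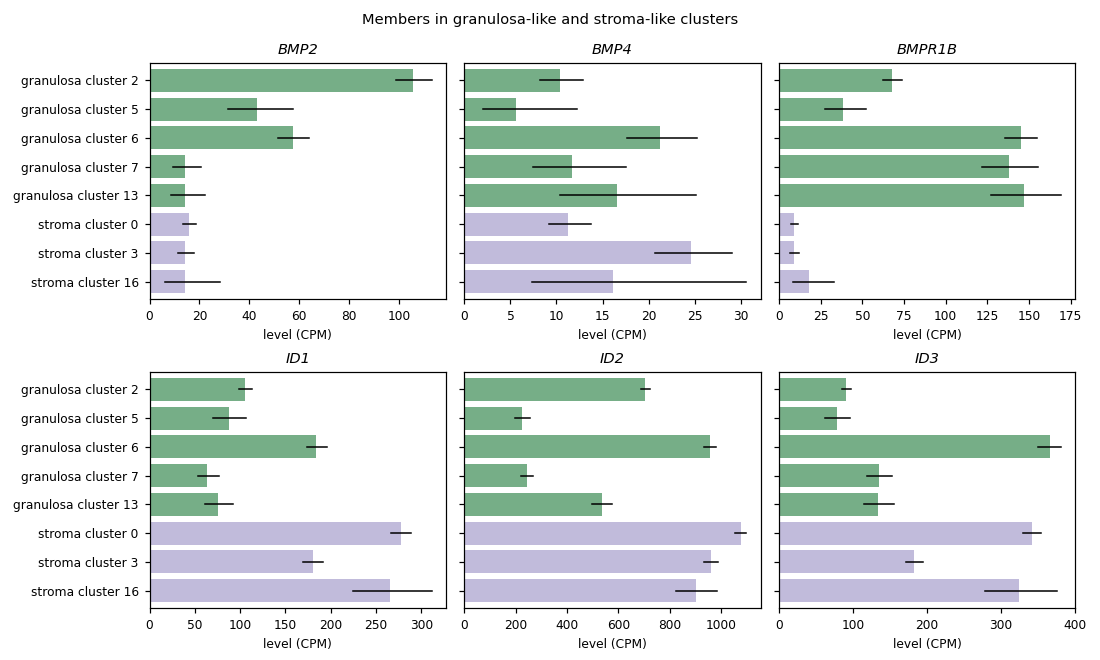
Levels of BMP2, BMP4, BMPR1B, ID1, ID2 and ID3 (horizontal axis, CPM) in the 5 granulosa-like clusters (green) and 3 stroma-like clusters (lilac), with exact 95% Poisson intervals as lines. BMP2 spans 14.2 to 105.8 CPM and BMPR1B 38.5 to 147.2 among granulosa-like clusters, and every stroma-like cluster is at or below 17.9 CPM of BMPR1B.

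The 10 genes were set beside all 13431 genes with at least 50 UMIs in retained cells, a gene being counted as higher or lower when it differed more than 2-fold with 10 CPM added to both levels. In granulosa-like over stroma-like cells 2 of 10 were higher, BMP2 and BMPR1B, where 3.92% of all genes were, and 0 were lower, where 3.45% were. The median log2 difference was -0.14 over the 10 and 0.05 over all genes. In endothelial-like over stroma-like cells BMPR2, ID1 and ID3 were higher and BMPR1A and ID4 lower, against 5.87% and 4.04% of all genes, with medians of 0.52 and -0.02. The 3.02-fold difference of SMAD6 was not counted, since 10 CPM exceeds its stroma-like level.

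Between germ cell steps the count shifted with the step. In RA-responsive-like over mitotic-like cells 1 of 10 was higher, ID3, and 0 were lower, against 7.27% and 4.77% of all genes, with medians of -0.08 and 0.09. In meiotic-like over RA-responsive-like cells BMPR2 was higher and BMPR1B, ID1 and ID3 lower, against 5.47% and 3.49%, with medians of -0.62 and -0.01. In oogenesis-like over meiotic-like cells BMPR1B, ID1, ID2 and ID3 were higher and BMPR2 lower, against 5.82% and 9.92%, with medians of 0.53 and -0.07. These comparisons share groups, so the genes counted in neighbouring ones are not independent.

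Other genes of the pathway came from lists by role, 63 genes of which 54 were in the table and 45 had the 50 UMIs. In granulosa-like over stroma-like cells 5 were higher and 4 lower, where 3.92% and 3.45% of all genes were. Those higher were the ligand BMP3 (49.2 against 11.1 CPM) and, from the list of extracellular antagonists, SOST (219.9 against 11.3), FST (104.9 against 15.2), FSTL3 (52.2 against 15.1) and CRIM1 (76.0 against 26.2). Whether these act on BMP ligands here was not tested. Those lower were the coreceptors TGFBR3 (44.9 against 212.2) and ENG (37.7 against 99.0) and the secreted FSTL1 (69.8 against 308.1) and NBL1 (87.4 against 193.5). SOST also leads granulosa-like cluster 2, so its class value is partly that of 1 cluster. The median log2 difference of the 45 was -0.07.

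In endothelial-like over stroma-like cells 9 of 45 were higher and 5 lower, where 5.87% and 4.04% of all genes were. The receptor side included ACVRL1, a type I receptor of endothelium, at 113.3 against 9.01 CPM, its coreceptor ENG at 389.8 against 99.0, and the signal carrier SMAD1 at 107.8 against 21.0. The inhibitors SMAD7 (63.3 against 15.7) and FKBP1A (675.0 against 235.3), the antagonist CRIM1 (79.7), the targets MSX1 (71.1 against 22.8) and GATA2 (71.9 against 10.7) and the E protein gene TCF4 (805.4 against 291.8) were higher as well. RGMA, TGFBR3, BAMBI, FSTL1 and NBL1 were lower. The median of the 45 was -0.03. The signal carrier SMAD5 passed 2-fold in none of these comparisons, at 128.9 CPM in endothelial-like, 101.5 in granulosa-like, 120.3 in surface epithelium-like and 132.0 in stroma-like cells.

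In germ cells the pathway genes past 2-fold included several targets. From mitotic-like to RA-responsive-like cells 5 of 45 were higher and 0 lower: ZGLP1, a transcription factor of the female germ cell fate (7.26 to 142.9 CPM), the homeobox gene MSX1 (0 UMIs, which allows up to 5.45 CPM, to 75.9 CPM), FST (1.82 to 46.0), SMAD4 (5.45 to 22.4) and TCF4 (38.1 to 88.9). From RA-responsive-like to meiotic-like cells 0 were higher and 6 lower, namely ZGLP1 (to 8.03), MSX1 (to 23.3), GATA3, SMAD7, BAMBI and FSTL1. From meiotic-like to oogenesis-like cells GDF9, an oocyte growth factor (19.0 to 309.1 CPM), ENG (5.92 to 39.5), BAMBI (10.6 to 32.3) and ZGLP1 (8.03 to 28.0) were higher, and SKIL and TWSG1 lower. ENG was at 389.8 CPM in endothelial-like cells, whose markers were also higher in oogenesis-like than in meiotic-like cells, at 567.1 against 179.7 CPM. The part of endothelial RNA in the ENG difference was not tested. The shares of all genes higher and lower were 7.27% and 4.77%, 5.47% and 3.49%, and 5.82% and 9.92% in these comparisons, and the medians of the 45 were 0.20, -0.18 and -0.08. ZGLP1 and MSX1 thus had their highest germ cell step in common with ID3.

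**Figure D5:**
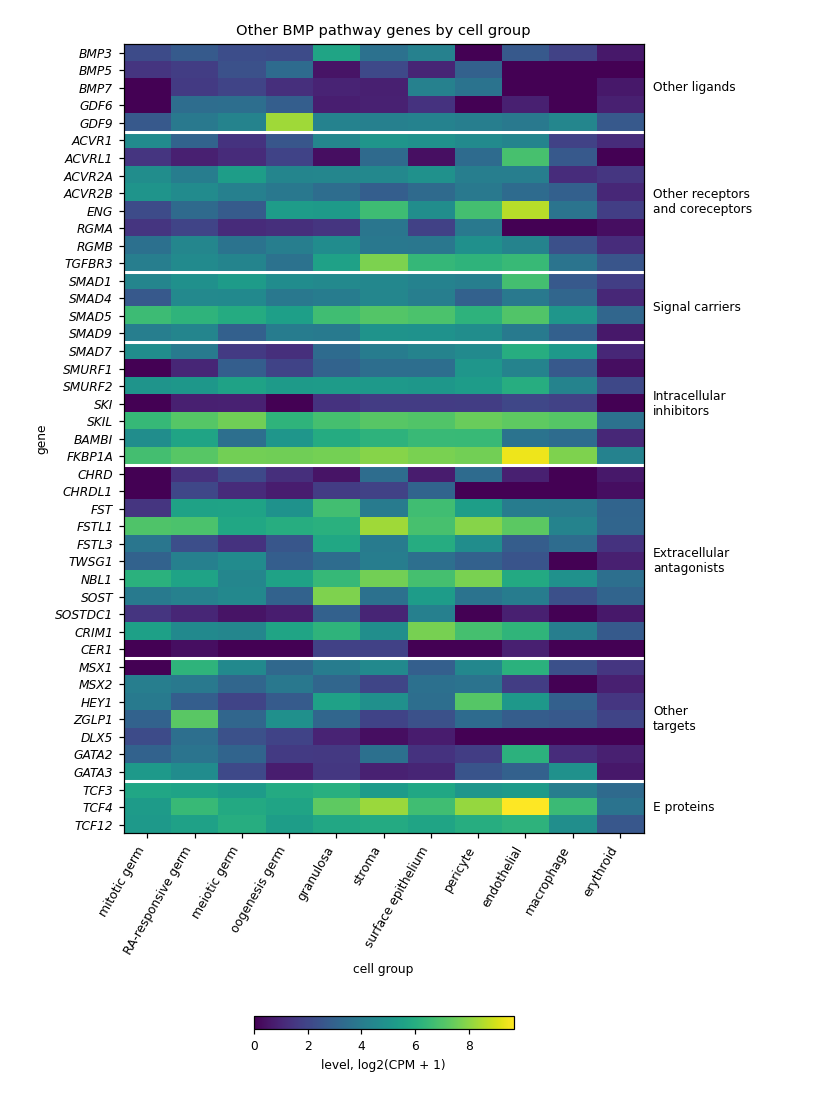
Levels of 45 other BMP pathway genes with at least 50 UMIs (rows, grouped by role) in 4 germ cell steps and 7 classes (columns), coloured by log2(CPM + 1) from dark (0) to yellow. GDF9 stands out in the oogenesis step at 309.1 CPM, ZGLP1 in the RA-responsive step at 142.9, and ENG and TCF4 in endothelial-like cells at 389.8 and 805.4.

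The genes whose levels ran most like each member over the 11 groups were found by Pearson's r of log2(CPM + 10) among 13430 genes, as a description over points that share 2 libraries. For BMP2 they were TSPO, ATXN7L1 and VWA3B (r of 0.922, 0.921 and 0.920). For BMP4 the closest named gene was SERPING1 (0.962), then TGFB2 (0.933). For BMPR1A, BMPR1B and BMPR2 the closest were NUMBL (0.943), EMC1 (0.959) and ARHGEF12 (0.949), and for SMAD6 it was TEAD4 (0.935). For ID1, ID2, ID3 and ID4 they were HYAL2 (0.943), STX10 (0.980), DPAGT1 (0.935) and SLC22A5 (0.926). Among the members themselves the closest pairs were ID2 with ID3 (0.819), BMPR1A with ID4 (0.802) and ID1 with SMAD6 (0.759), and the most opposed was BMPR1B with ID3 (-0.294).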

How the data were processed

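The authors deposited 1 table of unnormalized UMI counts. Cell Ranger 3.0.2 and Seurat are named in the submitters' processing notes, and the study's methods give Macaca_fascicularis_5.0 as the genome. No cell labels are in the table, so clusters were rebuilt and their names may differ from the study's. Cells with 200 to 3000 detected genes were kept. These are the gene limits of the study, but they leave more cells here than the study states. Seurat 5.3.0 (R 4.3.3, Matrix 1.6.5) was run with 2000 variable genes, leaving out the 10 genes and the pathway lists, 18 principal components, 20 neighbours and resolution 0.6, which gave 19 clusters. A name needed 3 markers, each 1.5-fold higher than elsewhere with 10 CPM added and in 5% of cells, and was withheld where another class led. Germ cells were clustered again into 11 sub-clusters. Scrublet in scanpy 1.11.5 called 0 doublets, so none were removed and doublets may remain. Why it called 0 was not tested.

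UMIs were summed per group as CPM with exact 95% Poisson intervals, ratios have exact conditional binomial intervals, and a count of 0 allows up to 3. Counts per cell range widely, so shares were also taken after thinning to 1000 UMIs, which left out 1484 germ cell-like and 1042 granulosa-like cells. Python 3.11.15, numpy 2.4.6, scipy 1.17.1, pandas 2.3.3 and matplotlib 3.10.9 were used, and steps were tested on simulated data. Pathway genes were named where past 2-fold in a comparison or at 100 CPM or more in a class, and the 3 genes most like each member were ranked. The members and lists were chosen with earlier results of these data known. The comparisons were repeated under 10 other settings, and under 2 more chosen after seeing the data.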

Additional observations from a re-analysis of the deposited data

Results flagged for a closer look

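All 10 genes gave signal in the 4675 cells over 3000 detected genes, which the comparisons above leave out apart from the values given for them, and each lay above the limit that a count of 0 allows. Levels there were 58.8 CPM for BMP2, 18.9 for BMP4, 21.8 for BMPR1A, 82.0 for BMPR1B, 56.3 for BMPR2, 202 for ID1, 650 for ID2, 248 for ID3, 26.1 for ID4 and 6.47 for SMAD6. These cells held from 60.4% (ID4) to 74.8% (BMPR1B) of a gene's UMIs in the table, beside 64.2% of all UMIs.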

How the results depend on the processing

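Values are log2 differences. Of 83 alternative values for the 8 main differences, 74 kept the direction, and all 52 whose interval excluded 0 in the main setting did so. For the 72 other differences 629 of 709 did, and 450 of the 468 resolved ones. Without the upper gene limit BMP2 granulosa over stroma was 2.43 and BMP4 stroma over granulosa -0.40, and reversals were ID1 surface epithelium over granulosa (-0.16), ID3 granulosa over stroma (0.094) and ID3 oogenesis over meiotic (-0.68); the NANOG-led cluster stayed unnamed, so RA-responsive over mitotic has no value. With at most 10% mitochondrial UMIs the values were 2.68 for BMP2, 0.81 for BMP4, 3.21 for BMPR1B granulosa over stroma and -0.42 for ID2 RA-responsive over mitotic, and reversals were ID2 meiotic over RA-responsive (0.14), ID2 oogenesis over meiotic (-0.10), ID3 surface epithelium over granulosa (0.080) and ID4 meiotic over RA-responsive (-0.12). BMPR1B was 3.77 with the top 8% of Scrublet scores removed, 3.21 as a mean of single cells and 3.25 after thinning, where ID1 RA-responsive over mitotic was -0.40 and ID1 surface epithelium over granulosa -0.26. ID2 RA-responsive over mitotic was -0.34 with 30 components. BMP4 meiotic over RA-responsive turned to 0.0031 at resolution 1.0, 0.85 with integrated endings and 0.0090 with Scrublet scores. Of 2 alternatives chosen after seeing the data, leaving out the shallow granulosa-like cluster kept all 3 values, while cells over 3000 genes gave 2.42 for BMP2, -0.997 for BMP4, 0.67 for SMAD6 endothelial over stroma, and -0.23, 2.40 and 1.28 for ID1, ID3 and ID4 RA-responsive over mitotic, with reversals for BMPR1B RA-responsive over mitotic (0.33), ID1, ID2 and ID3 granulosa over stroma (0.12, 0.21 and 0.39), ID1 surface epithelium over granulosa (-0.32), and ID1 and ID3 oogenesis over meiotic (-0.0070 and -0.67). The cause of these changes was not tested. No paired analysis was possible because each stage has 1 library and cells are not mapped to stages.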

Other observations

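Among germ cell-like cells without a named step, sub-cluster 5 (298 cells, led by RGS4, IFI27 and BST2) had 396.7 CPM of ID3 with 71.4 of ID1. Sub-cluster 1 (727 cells, led by KISS1 and collagen genes) had 58.4 of ID3, and sub-cluster 7 (201 cells, with hemoglobin genes among its leading genes) had 69.2 of ID3.

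Of the cells over 3000 genes, 20 were macrophage-like and had 124.0 CPM of BMP2, where the 229 retained macrophage-like cells had 35.5. Granulosa markers summed to 462.3 CPM in the first and 172.1 in the second, and their part in this difference was not tested. Endothelial-like cells over 3000 genes had 7.99 CPM of BMP4, and by ending 14.1 and 7.41.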
